A study of Mus musculus with 2 samples.

Results

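The genes described here act when a red cell precursor condenses and expels its nucleus, and their RNA was measured in the fetal mouse liver. They are Kmt5a, Hdac2, Xpo7, Rac1, Rac2, Diaph3, Mxi1 and Maea. They were chosen by name for their known roles, with earlier results of these data known, and all 8 were found among the 43346 mouse gene rows by their Ensembl identifier. Kmt5a was called Setd8 earlier. RNA came from livers of B6NCrl mouse embryos at 14.5 days, with no treatment named in the labels, in 1 group of 2 biological replicates. Each replicate gave 1 library, called library 1 and library 2 after its replicate number, and no other group is in these data. The labels call each sample a single liver and also give its sex as pooled male and female, and the livers were collected on different days, so animal and collection day cannot be told apart. The input was 10 ng of RNA with small RNAs removed and ERCC spike-in RNAs added, and the estimated reads numbered 39998450 in library 1 and 28848861 in library 2. With 1 group of 2 libraries there was no test between groups, so the text gives each liver's value, or the mean with its SD over 2 livers as a ± sign, and holds no p-value.

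The fetal liver at this age is the main site of red cell formation. During the last divisions of an erythroblast, histones lose acetyl groups, part of the histones is exported, and the nucleus shrinks. An actin ring driven by Rac GTPases and a formin then helps to pinch the nucleus off, and a macrophage takes it up. In mouse fetal erythroblasts, interference with most of these genes has been found to block condensation or enucleation, but nearly all of them are also used in other cell types, so their level in a whole liver is not a measure of red cells alone. In these bulk samples, fewer cells of a type and less RNA per cell cannot be told apart.

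The tissue was checked against markers of 8 cell types. All 8 erythroid markers and all 6 hepatoblast markers were at 1 TPM or more in both livers. So was every marker of the other lists, and this threshold therefore does not tell the cell types apart. TPM is a gene's share of the transcripts in its library, scaled by length so that all shares add up to the same total. The globin share of mouse TPM was 39.9% and 38.1%. The summed erythroid list was 142902 TPM in library 1 and 137653 TPM in library 2, and the summed macrophage list 376 and 385 TPM. Most of the erythroid sum was Hba-a1 and Hbb-bs, at 59669 and 80700 TPM in library 1 and 57054 and 77948 TPM in library 2. Of the 8 erythroid markers, 5 were higher and 3 lower in library 2, and both of these globin genes were among the 3. The list that differed most was that of neutrophil markers, such as S100a8 and Mpo, with 2751 TPM in library 1 and 1979 TPM in library 2, and all 8 of its members were lower in library 2. Megakaryocyte markers summed to 545 TPM in library 1 and 685 TPM in library 2, with all 6 members higher in library 2. The sums of the hepatoblast, mesenchymal, endothelial and early B lists were 13560, 116, 85.9 and 9.99 TPM in library 1, and 14576, 125, 87.0 and 11.1 TPM in library 2. No marker of the 8 lists was at 0.

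All 8 genes were expressed in both livers at 1 TPM or more, against 49.2% of the protein-coding genes. Their median level was 34.4 TPM in library 1 and 35.3 TPM in library 2, while the median of the 11375 genes detected in both livers was 9.66 TPM. The lowest of the 8, Diaph3, lay at percentile 52.3 of the detected genes and the highest, Rac1, at percentile 90.7. With the transcript lengths that the authors deposited, the order by level was Rac1, Hdac2, Kmt5a, Maea, Rac2, Xpo7, Mxi1 and Diaph3. Rac1 stood above all others and Xpo7 stood between the upper and lower genes in both livers. Maea and Rac2 changed places between the livers, as did Mxi1 and Diaph3, so on these lengths these neighbours did not differ beyond their spread. Hdac2 in library 1 lay below Kmt5a in library 2, and Kmt5a in library 1, at 38.1 TPM, lay below Maea in library 2, at 38.2 TPM, so the ranges of these neighbours overlapped as well.

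**Figure D1:**
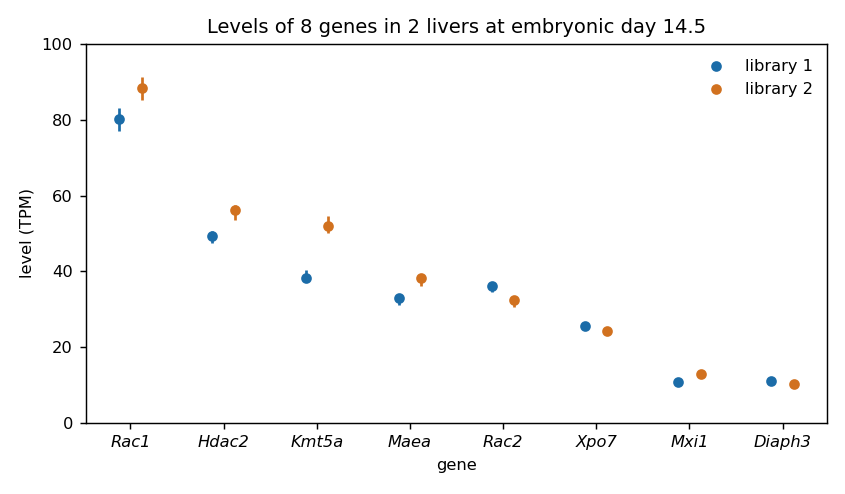
Level of the 8 genes in TPM (linear axis), with 1 point per liver and a line for the interval that the authors deposited for each estimate. For Xpo7 in library 2 the TPM lies just above the end of its interval. Rac1 is the highest in both livers, Mxi1 and Diaph3 are the lowest, and Kmt5a shows the widest gap between the livers.

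The chromatin genes came next after Rac1. Kmt5a (ENSMUSG00000049327.13, chromosome 5, 124439930 to 124462308 on GRCm38, plus strand) encodes the methyltransferase that places a single methyl group on lysine 20 of histone H4, a mark of compact chromatin. It stood at 38.1 TPM in library 1 and 51.9 TPM in library 2, from 3958 and 3583 reads. The deposited intervals, whose level is not stated, were 37.1 to 40.3 TPM in library 1 and 50.0 to 54.7 TPM in library 2, and did not touch. Hdac2 (ENSMUSG00000019777.12, chromosome 10, 36974544 to 37001889, plus strand), a class I deacetylase that removes acetyl groups from histones, was at 49.3 TPM in library 1 and 56.1 TPM in library 2. It was thus higher in library 2 by less than Kmt5a was.

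Kmt5a transcripts came mainly from the upstream of its annotated start sites. Kmt5a-201, which starts at position 124439930, held 90.3% of the gene's TPM in library 1 and 82.4% in library 2. Kmt5a-202, which starts at 124445493 and has a coding sequence of 1092 bases in place of 1050, held 6.32% and 13.1%. In TPM this second form was at 2.41 (interval 1.63 to 3.14) in library 1 and 6.77 (4.98 to 8.08) in library 2, so these intervals did not touch. The share of all transcripts with intervals apart was not computed, so how unusual this is cannot be said. The main form, Kmt5a-201, was at 34.4 and 42.8 TPM. The estimated reads of Kmt5a-202 were 126 in library 1 and 246 in library 2, and how reads of shared exons are divided rests on the authors' model. The length of Kmt5a-202 in the deposited tables was 1348 nucleotides, against 1425 in GENCODE M21.

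The 250 bases before each of these starts are shown because the start sites were used so unequally. They are from RefSeq on GRCm38, whose downstream start is at 124445499, and are read 5′ to 3′ on the plus strand, at chr5:124439680-124439929 and chr5:124445249-124445498. Capitals mark CCAAT on either strand, a motif bound by the factor NF-Y.
Kmt5a upstream start: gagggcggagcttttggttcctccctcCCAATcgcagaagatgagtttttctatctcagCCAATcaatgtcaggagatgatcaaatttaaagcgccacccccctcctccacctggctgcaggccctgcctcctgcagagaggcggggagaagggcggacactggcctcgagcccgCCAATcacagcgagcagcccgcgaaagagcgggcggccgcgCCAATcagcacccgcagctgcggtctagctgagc
Kmt5a downstream start: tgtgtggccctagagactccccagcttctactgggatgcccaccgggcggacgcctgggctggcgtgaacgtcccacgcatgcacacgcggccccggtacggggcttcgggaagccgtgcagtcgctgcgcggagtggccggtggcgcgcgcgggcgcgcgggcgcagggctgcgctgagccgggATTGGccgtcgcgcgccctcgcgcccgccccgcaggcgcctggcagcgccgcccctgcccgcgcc

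The upstream start had 4 matches to CCAAT, beginning 223, 191, 75 and 34 bases before the start, and the downstream start had 1, at 65 bases. Of the 32851 promoters of this length, 33.8% held at least 1 match and 0.840% held 4 or more. The GC content was 62% before the upstream start and 78% before the downstream one. The same windows were searched on both strands for AGATAA or TGATAA, bound by GATA factors and held by 16.6% of promoters. They were also searched for CCNCACCC, bound by KLF factors and held by 14.9%, and for CACGTG, the E-box of MYC and MAX, held by 6.02%. Neither Kmt5a window printed here held these letters. A further Kmt5a window, before the RefSeq start at 124446704, held 2 matches to CCNCACCC and 2 to CCAAT. It is not printed because Kmt5a-206, which starts there, held 0.92% of Kmt5a TPM in library 1 and 0.66% in library 2. A match or its absence is a description of the sequence only.

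Hdac2 was almost wholly in its full-length form. Hdac2-201 held 99.6% of its TPM in library 1 and 99.8% in library 2. The other 3 transcripts with a row were each below 0.3% in both livers, including Hdac2-202, whose coding sequence of 912 bases is shorter than the 1464 of Hdac2-201.

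Relatives of these enzymes were also expressed. Hdac1, the close paralog of Hdac2, was at 90.6 ± 4.3 TPM and above Hdac2 in both livers, while Hdac3 was at 28.3 ± 3.9 TPM and Hdac8, the remaining class I gene, at 0.35 TPM in library 1 and 0.73 TPM in library 2. Of 10 other histone deacetylases, 8 reached 1 TPM in both livers. Kmt5c and Kmt5b, which add further methyl groups to the mark placed by Kmt5a, were at 33.8 ± 4.2 and 4.16 ± 0.25 TPM. Condensins, the ring complexes that compact chromosomes in mitosis, were high, with Smc2 at 142 ± 7 TPM and Smc4 at 107 ± 11 TPM. In this list of 12 methylation and condensin genes, 11 reached 1 TPM, and the lowest was the methyl-lysine reader gene L3mbtl1 at 0 TPM in library 1 and 0.03 TPM in library 2.

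Xpo7 held the most reads of the 8 genes and was sixth by TPM. Xpo7 (ENSMUSG00000022100.9, chromosome 14, 70654246 to 70766628, minus strand) encodes an exportin that carries histones and other proteins out of the nucleus of mouse erythroblasts. It had 16046 reads in library 1 and 10539 in library 2, or 433 and 392 CPM when scaled to the total on mouse genes. Rac1, second by reads, had 7259 and 5680. By level Xpo7 stood at 25.6 TPM in library 1 and 24.2 TPM in library 2. The gap between its place by reads and its place by level follows from the length by which its reads were divided, 15118 nucleotides.

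The length of the Xpo7 model is not the same in every annotation release. Xpo7-201, which held 99.7% of the gene's TPM in library 1 and 99.5% in library 2, was 15118 nucleotides long in the deposited tables and is 4472 nucleotides long in GENCODE M21, with 28 exons. In M21 only Xpo7-202 keeps the long form, with a last exon of 11849 nucleotides against 1277 in Xpo7-201. If all its reads lay on the shorter model, Xpo7-201 would be at 87.4 TPM in library 1 and 82.5 TPM in library 2, above the leading transcripts of the other 7 genes at their M21 lengths in both livers. Rac1-201, whose model has 2315 nucleotides in the deposited tables and 4159 in M21, would be at 41.8 and 47.6 TPM if it gained no read. The first value is an upper limit, the second a lower one, and where the reads lie within the gene was not analysed here. For Kmt5a, Hdac2, Rac2, Diaph3 and Maea the leading transcript had the same length in both releases to within 65 nucleotides. For Mxi1-201 the length was 5156 nucleotides in the deposited tables and 2627 in M21.

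**Figure D2:**
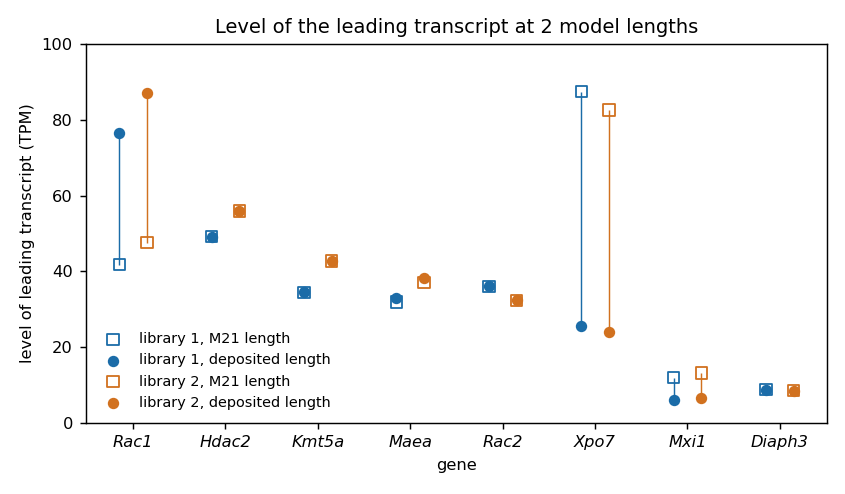
Level of the leading transcript of each gene in TPM (linear axis) with its deposited length (filled points) and rescaled to its length in GENCODE M21 (open squares), for each liver. Xpo7-201 moves to 87.4 and 82.5 TPM and Rac1-201 to 41.8 and 47.6 TPM, while 5 of the 8 hardly move.

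No short form of Xpo7 had a row. Both Xpo7 transcripts in the tables used here, of 15118 and 15121 nucleotides, were of full length, so the share of forms shorter than 0.5 of the longest was 0% in both livers by construction of the tables. At its M21 length of 4472 nucleotides Xpo7-201 itself would be such a form. M21 lists 6 Xpo7 transcripts. Among them, Xpo7-206 starts in another first exon 58593 bases downstream of the first start, has a coding sequence of 3264 bases, and was not analysed here.

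Xpo7-202, the second form, held 0.35% of Xpo7 TPM in library 1 and 0.50% in library 2, from 57 and 53 estimated reads. The Xpo7 gene overlaps Npm2 on the same strand and Dok2 on the other. Npm2 had 4 reads in library 1 and 0 in library 2, and Dok2 had 648 and 498, so reads assigned to these neighbours were few beside those of Xpo7. The sources used here do not say if counting took account of strand.

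Other export genes had levels on both sides of Xpo7. Cse1l, the exportin that returns importin alpha, was at 56.1 ± 1.9 TPM, and Xpo1, the general exportin, at 42.6 ± 3.6 TPM, both above Xpo7 in each liver. Xpo4, Xpo5, Xpo6 and Xpot lay between 11.2 and 16.5 TPM, below it. Ranbp17, the closest relative of Xpo7, was at 2.42 TPM in library 1 and 3.66 TPM in library 2. Ran, the GTPase that drives export, was at 398 ± 21 TPM, and all 10 genes of this list reached 1 TPM in both livers. These positions are on the deposited model lengths, and Xpo7 would lie above Cse1l if all of its reads lay on the M21 model.

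The Rac genes were expressed unequally. Rac1 (ENSMUSG00000001847.10, chromosome 5, 143503634 to 143528036, minus strand), the GTPase found in nearly all cells, was at 80.2 TPM in library 1 and 88.5 TPM in library 2. Rac2 (ENSMUSG00000033220.6, chromosome 15, 78559167 to 78572783, minus strand), which is largely limited to blood cells, was at 36.0 TPM in library 1 and 32.3 TPM in library 2. Rac1 was thus 2.23-fold above Rac2 in library 1 and 2.74-fold in library 2, on the deposited lengths. At the M21 length of Rac1-201, and with no read gained, the Rac1 levels of 41.8 and 47.6 TPM remained above those of Rac2. Rac3, the remaining member, was close to silent at 0.05 and 0.11 TPM.

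Rac1 and Rac2 could be told apart in these data. Their coding sequences are 576 bases each and 444 of these, 77.1%, are identical without gaps. The spread that the authors deposited for the division of reads between genes was 0 reads for both genes in both livers. The last 60 coding bases are shown because they encode the tail by which these proteins bind membranes, and 27 of the 60 differ, 45%, against 20.3% of the 516 bases before them. Capitals mark the differing bases (GENCODE M21, minus strand, chr5:143506978-143507037 and chr15:78561911-78561970).
Rac1: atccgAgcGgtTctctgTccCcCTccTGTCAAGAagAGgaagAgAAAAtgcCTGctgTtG
Rac2: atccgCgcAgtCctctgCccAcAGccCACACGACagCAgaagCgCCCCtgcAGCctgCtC

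A splice form of Rac1 was present at a low level. Rac1-202, known as Rac1b, carries an extra exon of 57 coding bases, which in human cells gives a form of the protein that is active without stimulation. The exon is shown in capitals between 15 bases of each neighbouring exon, with the junction that skips it (GENCODE M21, minus strand, within chr5:143508144-143514683).
Rac1-202: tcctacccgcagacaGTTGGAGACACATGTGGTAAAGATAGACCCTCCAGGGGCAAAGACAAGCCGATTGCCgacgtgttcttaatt
Rac1-201: tcctacccgcagacagacgtgttcttaatt
Rac1-201, without the exon, held 95.4% of Rac1 TPM in library 1 and 98.6% in library 2. Rac1-202 held 1.56% and 1.13%, from 117 and 65 estimated reads, with intervals of 0.64 to 2.16 TPM in library 1 and 0.42 to 1.93 TPM in library 2. The intervals overlapped, and a difference between the livers was not detectable at this depth. The noncoding Rac1-204 had 49 estimated reads in library 1 and 0 in library 2. Daglb, which overlaps Rac1 on the other strand, had 675 reads in library 1 and 561 in library 2. Rac2 had a single transcript row.

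Rac2 was lower in library 2, where all 8 neutrophil markers were lower too. As Rac2 is known for its role in neutrophils, the values stand side by side: Rac2 at 36.0 TPM in library 1 and 32.3 TPM in library 2, and the summed neutrophil list at 2751 and 1979 TPM. The part of these cells in the Rac2 level was not tested. In the list of 15 other small GTPases of the cytoskeleton and their regulators, 11 were higher in library 2 and 4 were lower. The 4 were named after their values were seen: Arhgdib at 96.7 and 86.4 TPM, Vav1 at 9.08 and 8.80 TPM, Was at 2.86 and 2.24 TPM, and Rhoc at 13.7 and 12.8 TPM. Of these, Arhgdib, Vav1 and Was are known mainly from blood cells, as is Dock2, which was at 2.13 TPM in library 1 and 2.37 TPM in library 2. The deposited intervals of the livers were apart for Arhgdib and overlapped for the other 4. The highest members of the list were the GTPase Cdc42 at 213 ± 3 TPM and Arhgdia, which holds such GTPases in the cytosol, at 161 ± 8 TPM, and 14 of the 15 reached 1 TPM in both livers.

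Diaph3 was the highest of the formins listed here in both livers, on the deposited model lengths. Diaph3 (ENSMUSG00000022021.9, chromosome 14, 86655367 to 87141235, minus strand) encodes mDia2, a formin that extends actin filaments downstream of Rac in mouse fetal erythroblasts. It was at 10.9 TPM in library 1 and 10.2 TPM in library 2, from 1948 and 1271 reads. Its paralogs were lower, with Diaph1 at 3.93 ± 0.21 TPM and Diaph2 at 0.69 TPM in each. Of 11 other formins, 4 reached 1 TPM in both livers. The next highest, Daam1, was at 9.41 TPM in library 1 and 9.97 TPM in library 2, close to Diaph3 in library 2. This order was not tried at M21 lengths, where Diaph3-202 has 4582 nucleotides against 3516 in the deposited tables. The lowest formin, Fmn2, was at 0 and 0.01 TPM.

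Reads of Diaph3 were divided between a pair of coding forms. Diaph3-201 held 80.5% of its TPM in library 1 and 83.6% in library 2, and Diaph3-202 held 19.5% and 16.4%. In M21 both are 4582 nucleotides long and differ in a single base, where an exon border is drawn 2 bases apart, as shown in capitals (minus strand, within chr14:86829140-86834990).
Diaph3-201: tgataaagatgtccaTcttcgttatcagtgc
Diaph3-202: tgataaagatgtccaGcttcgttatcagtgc
In the deposited tables Diaph3-202 was 3516 nucleotides long and Diaph3-201 was 4582, and with models this alike the shares are uncertain.

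Mxi1 was divided about evenly between its start sites, on the deposited model lengths. Mxi1 (ENSMUSG00000025025.9, chromosome 19, 53310518 to 53375810, plus strand) encodes a partner of MAX that opposes MYC, and mouse erythroblasts with less of it enucleate poorly. It was at 10.8 TPM in library 1 and 12.9 TPM in library 2. Mxi1-201, which starts at 53310518, held 55.3% of its TPM in library 1 and 51.0% in library 2, and Mxi1-202, which starts at 53329458, held 43.8% and 49.0%. These forms have coding sequences of 885 and 576 bases, so the upstream start gives the longer protein. In TPM, Mxi1-201 was at 5.96 (interval 5.03 to 6.63) and 6.57 (5.47 to 7.36), and Mxi1-202 at 4.72 (3.79 to 5.45) and 6.32 (5.09 to 7.05). The intervals of the livers overlapped for both forms. Rescaled to the M21 length of 2627 nucleotides, with all its reads on that model, Mxi1-201 would be at 11.9 TPM in library 1 and 13.1 TPM in library 2, so the even division rests on the deposited length. The antisense gene Gm10197 inside Mxi1 had 44 and 43 reads, few beside the 2246 and 1865 of Mxi1.

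The 250 bases before a pair of annotated starts are shown because forms from an upstream and a downstream start were in use. They are from RefSeq on GRCm38, plus strand, whose starts are at 53310506 and 53329413. The second is the start of Mxi1-203, which held 0.94% of Mxi1 TPM in library 1 and 0.03% in library 2, so this window does not end at the start of Mxi1-202. The windows lie at chr19:53310256-53310505 and chr19:53329163-53329412, and capitals mark CCNCACCC on either strand.
Mxi1 upstream start: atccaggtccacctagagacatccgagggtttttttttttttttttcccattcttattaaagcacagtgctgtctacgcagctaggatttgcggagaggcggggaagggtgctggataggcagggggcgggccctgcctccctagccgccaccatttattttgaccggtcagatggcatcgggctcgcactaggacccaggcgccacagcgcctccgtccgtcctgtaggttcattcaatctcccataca
Mxi1 downstream start: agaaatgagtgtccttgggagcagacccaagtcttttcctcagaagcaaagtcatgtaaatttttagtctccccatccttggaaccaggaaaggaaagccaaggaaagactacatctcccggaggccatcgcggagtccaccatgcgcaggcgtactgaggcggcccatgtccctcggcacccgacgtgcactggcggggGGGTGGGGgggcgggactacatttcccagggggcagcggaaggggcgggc
The downstream window held 1 match, 50 bases before the start, and the upstream window held 0. Neither window held any of the other motifs searched. Promoter sequences were matched for 4 of the 8 genes: Kmt5a, Hdac2, Diaph3 and Mxi1. Of the 8 windows of these genes, 4 held CCAAT and 3 held CCNCACCC, against 33.8% and 14.9% of all promoters. AGATAA or TGATAA was in 0 and CACGTG in 0, against 16.6% and 6.02%. Several windows belong to the same gene, and 8 windows are too few to set against these shares. Those with CCNCACCC were the third Kmt5a window and the Mxi1 windows before 53329413 and 53329695.

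**Figure D3:**
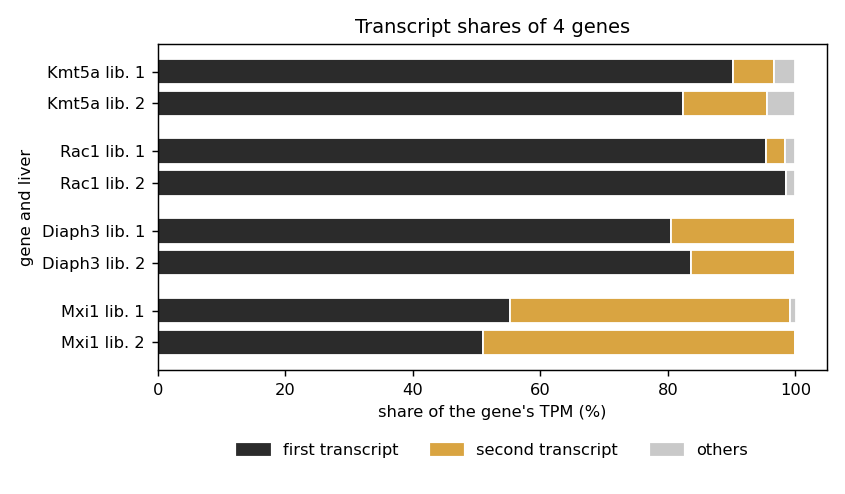
Share of each gene's TPM held by its first transcript (dark), its second (yellow) and all others (grey), in percent, for each liver. The first and second are Kmt5a-201 and Kmt5a-202, Rac1-201 and Rac1-204, Diaph3-201 and Diaph3-202, and Mxi1-201 and Mxi1-202. Kmt5a-202 holds 6.32% in library 1 and 13.1% in library 2, and Mxi1 is close to an even division.

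Partners and rivals of Mxi1 were expressed as well. Myc, the activator that Mxi1 opposes, was at 44.2 ± 1.2 TPM and above Mxi1 in both livers, and Max, the shared partner, was at 18.9 TPM in library 1 and 19.7 TPM in library 2. Of the other MXD genes, Mxd1 was at 23.7 ± 1.6 TPM, Mxd3 at 20.1 ± 1.4 TPM and Mxd4 at 3.02 ± 0.35 TPM, so Mxi1 stood between Mxd3 and Mxd4 in both livers. Mycl was the lowest of this list of 10 genes, at 0.33 and 0.43 TPM, and 8 of the 10 reached 1 TPM in both livers.

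Maea was present as a single transcript row. Maea (ENSMUSG00000079562.3, chromosome 5, 33335509 to 33373296, plus strand) encodes the erythroblast macrophage protein, known for attaching erythroblasts to macrophages in mice and as a subunit of the CTLH ubiquitin ligase. It was at 32.9 TPM in library 1 and 38.2 TPM in library 2, from 2790 and 2252 reads. Rmnd5a, its partner in the catalytic core, was at 3.78 ± 0.11 TPM, and the related Rmnd5b was at 16.2 ± 0.9 TPM. Mkln1 and Gid8 were the highest of 10 other subunits, at 117 ± 4 and 101 ± 4 TPM. The lowest was Ranbp9 at 2.56 ± 0.04 TPM, and all 10 reached 1 TPM in both livers.

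**Figure D4:**
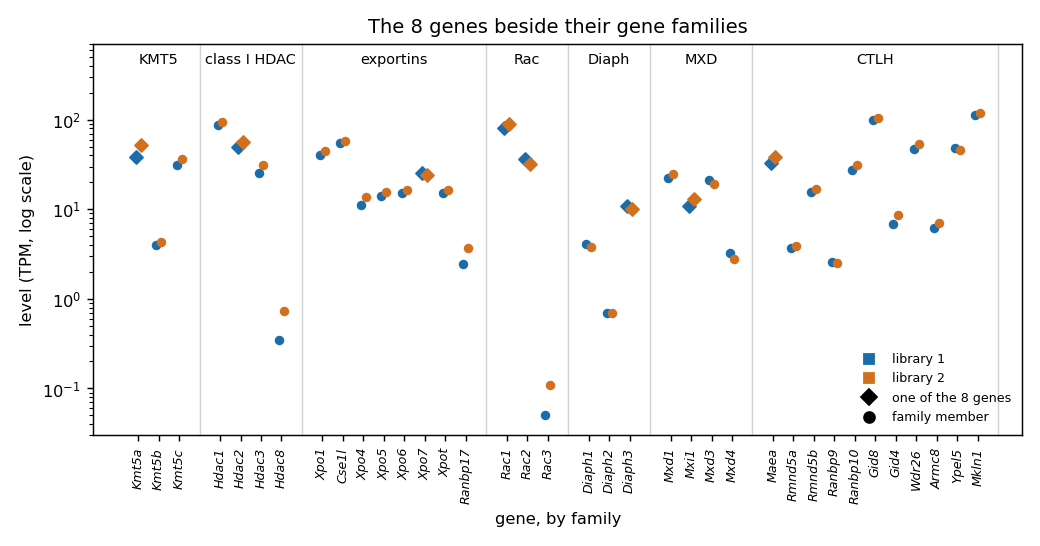
Levels in TPM (log axis) of the 8 genes (diamonds) and of members of their gene families or complexes (circles), with 1 point per liver. On the deposited model lengths, Hdac2 lies below Hdac1, Xpo7 below Xpo1 and Cse1l, and Mxi1 below Mxd1 and Mxd3. On the same lengths, Kmt5a, Rac1 and Diaph3 are the highest of their families.

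Further genes of nuclear shape and enucleation were listed beside the 8. In both livers all 15 of them reached 1 TPM, and their median was 21.3 TPM. Lmna, the lamin of the nuclear envelope that is also used by supporting cells, was at 102 ± 11 TPM, and Cltc, the clathrin heavy chain, at 85.9 ± 9.7 TPM. The lowest was the lamin gene Lmnb2, at 2.49 ± 0.26 TPM. Of the 13 of them with a mean of at least 10 TPM, 0 differed 2-fold between the livers, against 0.251% of all 5576 such genes. Beside that share, this count says nothing about these genes.

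Between the livers, Kmt5a was the gene of the 8 that differed most by TPM, and 0 of the 8 differed at least 2-fold. As the share over the 5576 genes was 0.251%, this count says nothing about the 8 genes, all of which passed the same filter on the mean. The median log2 ratio, library 2 over library 1 on TPM + 1, was 0.16, with 5 genes higher and 3 lower in library 2, while the median of all 5576 genes was 0.093. On counts scaled by the trimmed mean of M values (TMM), these medians were 0.061 and -0.017. The scaling moved the median of all genes by 0.11, so ratios are given relative to that median. Relative to it, Kmt5a was 0.34 higher in library 2, and 0.28 higher on TMM-scaled counts. Mxi1, Maea, Hdac2 and Rac1 were higher in library 2 by 0.14, 0.12, 0.089 and 0.046, and Xpo7, Diaph3 and Rac2 stood at -0.17, -0.19 and -0.24. All 8 kept their direction relative to the median on TMM-scaled counts.

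On TPM, Kmt5a had the widest difference of the 8 genes. Its ratio of TPM was 1.36, and 2.31% of the 5576 genes had a larger log2 difference in either direction. On TMM-scaled counts its log2 ratio was 0.26, and 6.21% had a larger difference, while that of Rac2 was -0.27, with 5.58% larger. These ratios and percentages were not taken relative to the median of all genes. Relative to it, the TMM-scaled log2 ratios were 0.28 for Kmt5a and -0.25 for Rac2. Scaled only to the total on mouse genes, Kmt5a had 107 CPM in library 1 and 133 CPM in library 2. The average length of its transcripts, by which TPM divides, was 2583 nucleotides in library 1 and 2476 in library 2.

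For 7 of the 8 genes the deposited TPM intervals of the livers were apart, 5 of them higher and 2 lower in library 2, with Diaph3 as the exception. An interval need not hold the TPM given beside it. For Xpo7 in library 2, the TPM of 24.15 lay just above its interval of 23.22 to 24.13. Among all 5576 genes 34.1% were apart, 30.7% higher and 3.46% lower in library 2. Among the 4038 of them with 1000 or more reads in each liver, as all 8 genes had, 41.1% were apart. The intervals hold the error of counting and of dividing reads, not the spread between animals, and with 1 liver per collection day that spread cannot be separated from the day. The intervals are on TPM as deposited, without the median log2 ratio of the 5576 genes, 0.093, taken off.

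**Figure D5:**
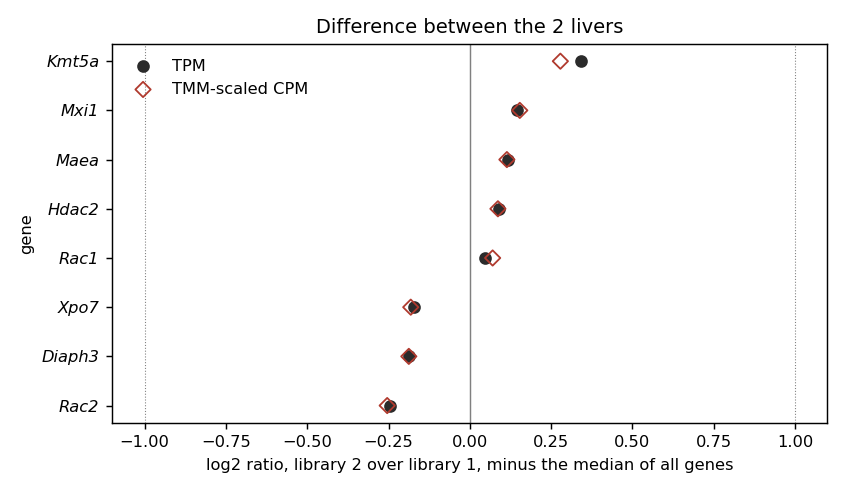
Log2 ratio of library 2 over library 1, minus the median of the 5576 genes whose mean was at least 10 TPM, for TPM + 1 (filled circles) and TMM-scaled CPM + 1 (open diamonds). Dotted lines mark a 2-fold difference. All 8 genes lie well within them, with Kmt5a at 0.34 and Rac2 at -0.24 as the extremes.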

How the data were processed

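RNA-seq of 2 livers was used, in 1 group, with the replicate numbers of the labels. Per the file headers and deposited descriptions, the authors gave per library a gene and a transcript table on mm10 with annotation M4; no source used here names the aligner or counter. The authors' expected counts are estimated reads without normalization, TPM and FPKM are scaled by the authors for length and library, and the deposited percent is each transcript's share of its gene's TPM. The authors' deposited interval of each TPM, handled as a score, has a level not stated in the files. Effective length is 99 nucleotides below length. Intervals cover only the error of counting and of dividing reads, and may be too narrow even for that, since amplified reads need not be independent molecules.

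Symbols, positions and M21 lengths came from GENCODE M21 on GRCm38, by identifier without version. All 93 companion genes in 8 lists matched. Members and lists were chosen with earlier results of these data known. Genes were detected at 1 TPM, and ratios used a pseudocount of 1 and a mean of 10 TPM. Named companions are the highest 2 and lowest of each list, the direct paralogs and Rmnd5a. Xpo1, Xpo4, Xpo5, Xpo6, Xpot, Max, Arhgdib, Vav1, Was, Rhoc, Dock2, Rmnd5b, S100a8, Mpo, Hba-a1, Hbb-bs and overlapping neighbours were added after values were seen. No pattern likeness was computed with 2 libraries. TMM factors (edgeR, rounded expected counts) gave scaling only, no test. Tools were Python 3.11.15, pandas 2.3.3, numpy 2.4.6, R 4.3.3 and edgeR 4.0.16.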

Additional observations from a re-analysis of the deposited data

How the results depend on the processing

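The log2 ratios of the 8 genes and their median kept their sign under each alternative tried for them, whereas the median over all genes was 0.093 on TPM and -0.017 on TMM-scaled counts. The count of 8 detected genes was the same at 10 TPM and by FPKM. The 0% of short Xpo7 forms could not change, since both rows are of nearly equal length. The median level of the 8 genes, 34.9 TPM, was 57.1 TPM without globin genes, 36.0 TPM without mitochondrial genes and rRNA, and 35.8 by FPKM; it ran from 34.4 to 35.3 TPM with either replicate left out. Their median log2 ratio, 0.16, was 0.15 with a pseudocount of 5, 0.061 on TMM-scaled counts and 0.12 without globin genes. Genes past 2-fold between the livers numbered 14, but 89 from a mean of 1 TPM, 146 with no filter and 7 on TMM-scaled counts. Xpo7 was at position 6 of 8 by level but at position 1 by reads not divided by length and at position 1 with leading transcripts at their M21 length; these alternatives were chosen after seeing the data. Depth limits the rare forms, such as Rac1-202 with 117 and 65 estimated reads. No paired analysis was possible because there is 1 group.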
